A study of Mus musculus with 16 samples.

Results

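Thermogenic and brown adipocyte identity genes are the genes that let brown fat burn fuel for heat, together with the genes by which brown and beige fat cells are recognised. A list of 36 such genes was followed here, and array probes were assigned to them by matching each probe's transcript accession to a RefSeq gene table. All 36 were represented, by 53 probes: 23 genes had 1 probe and 13 had several. The array carried 19096 named genes in all. The signal was well above background on at least 3 arrays of at least 1 group for 35 of the 36 genes, and in every group for 28 of them. Esrrb exceeded background clearly on 2 of the 4 arrays of BAT knockouts and on no other array, so it was not measured.

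The samples were total RNA of white (WAT) and brown (BAT) adipose tissue from female mice, hybridised to one-colour Agilent whole-genome arrays. There were 4 groups of 4 arrays: WAT and BAT of wild-type control mice, and WAT and BAT of mice in which Nr3c1, the gene of the glucocorticoid receptor (GR), was knocked out in adipose tissue only. The labels name no treatment in any group. The Cre driver, the deleted exon, strain, age, fat depot of origin and housing temperature are not given in the sources used here. Nothing in the labels says which arrays came from the same animal.

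Brown adipocytes make heat with the inner mitochondrial membrane protein UCP1, which lets protons return to the matrix without making ATP. Noradrenaline released by sympathetic nerves starts this through beta-adrenergic receptors and cAMP, which free fatty acids from lipid droplets and raise transcription through the coactivator PGC-1alpha (Ppargc1a). PRDM16, EBF2 and the PPAR and ERR nuclear receptors keep up the brown programme, and clusters of UCP1-bearing beige cells can arise within white depots. Glucocorticoids are known to restrain this programme in rodents, which makes it a readout of interest when their receptor is deleted from fat.

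The start of each gene's promoter is of interest because most of these genes, though not all, were higher in BAT than in WAT. Of the 36 members, 29 had an entry in the RefSeq promoter table (GRCm38); Kcnk3, Ppargc1b, Cidea, Cpt1b, Ebf2, Elovl3 and Atp2a2 had none. The 250 bases upstream of the start site were searched on both strands for AGGTCA, the core element of many nuclear receptors including ERRs and PPARs, for AAGGTCA, its extended form, which contains AGGTCA, for TGACGTCA, the cAMP response element, and for AGAACA, the element bound by 1 GR monomer. AGGTCA was present in 5 member promoters (Slc27a2, Ucp3, Ucp1, Nrg4 and Letmd1), against 13.8% of all 27025 promoters of that length. AAGGTCA was present in 1 member promoter, Slc27a2 (4.05% of all promoters), and TGACGTCA in 1, Dio2 (1.62%). AGAACA was present in 2, Pank1 and Gyk (16.2%). These are matches of letters and not shown binding sites.

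The upstream stretches of 4 members are printed for the members whose depot differences open the results and for those holding the rarer motifs, 5′ to 3′ on the gene's strand, with the matched motifs in capitals. Ucp1 (chr8:83290098-83290347, plus strand) has AGGTCA close to the start site, and Fabp3 (chr4:130308488-130308737, plus strand) has no match. In Slc27a2 (chr2:126552774-126553023, plus strand) the capitals are AAGGTCA read on the opposite strand, and in Dio2 (chr12:90739039-90739288, minus strand) they are TGACGTCA.
Ucp1: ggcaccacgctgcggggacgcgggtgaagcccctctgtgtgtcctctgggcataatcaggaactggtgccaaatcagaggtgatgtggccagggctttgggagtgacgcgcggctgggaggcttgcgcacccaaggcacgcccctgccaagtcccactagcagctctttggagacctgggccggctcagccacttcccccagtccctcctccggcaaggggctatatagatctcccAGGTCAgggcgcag
Fabp3: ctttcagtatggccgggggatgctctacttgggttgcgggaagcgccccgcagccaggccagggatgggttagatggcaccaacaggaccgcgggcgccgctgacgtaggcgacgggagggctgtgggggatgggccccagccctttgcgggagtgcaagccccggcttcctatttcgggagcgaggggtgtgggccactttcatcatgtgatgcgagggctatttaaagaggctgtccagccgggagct
Slc27a2: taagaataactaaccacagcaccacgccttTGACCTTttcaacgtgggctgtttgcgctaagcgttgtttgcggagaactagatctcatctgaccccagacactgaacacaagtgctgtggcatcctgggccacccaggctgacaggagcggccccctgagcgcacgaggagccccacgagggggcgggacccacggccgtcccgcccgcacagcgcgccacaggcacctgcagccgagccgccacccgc
Dio2: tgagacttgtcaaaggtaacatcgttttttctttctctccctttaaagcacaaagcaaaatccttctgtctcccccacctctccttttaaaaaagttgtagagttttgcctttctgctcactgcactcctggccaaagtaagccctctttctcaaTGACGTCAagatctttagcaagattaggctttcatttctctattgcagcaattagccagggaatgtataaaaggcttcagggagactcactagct

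Before the values of the members, some properties of the samples bear on all of them. WAT knockout arrays 1 and 2 were nearly identical: the SD of their log2 difference was 0.0860 over 9113 bright probes, against 0.0892 from the noise between spots, while the closest other pair among the 120 pairs had 1.88 times its spot noise. They differed by less than the sampling noise and were counted as 1 sample, WAT knockout 1-2, so that n = 3 in that group and n = 4 in the others. A level below is the log2 of a probe's signal relative to the 75th percentile of its array, and a difference is a difference of such levels, given ± the SE of a linear model over all 15 samples (limma). For each gene that model shares the same spread among all groups, so an SE in BAT also reflects the spread in WAT. Adjusted p-values are limma's, corrected by the Benjamini-Hochberg method over 25107 features with a threshold of 0.05. With so few arrays, and no statement that they came from separate animals beyond the label of biological replicates, the tests measure only the spread between these samples.

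The content of the samples was checked with marker lists. Nr3c1 itself stood in knockouts at 48.8% of the control level in BAT and 63.4% in WAT, with every knockout sample below every control (exact permutation p = 0.0286, two-sided, in each depot, the smallest p these group sizes allow). In the limma fit over all features Nr3c1 did not pass in either depot (adjusted p = 0.0814 in BAT and 0.210 in WAT). The summed level of 11 adipocyte markers was 10.32 to 10.88 in WAT controls, 11.09 to 11.34 in BAT controls and 11.11 to 11.47 in BAT knockouts, but 8.98, 9.60 and 11.29 in WAT knockouts 1-2, 3 and 4. The 18 skeletal muscle markers summed to 3.61 to 4.29 in WAT controls and 2.72 to 4.85 in WAT knockouts, against 8.11, 8.62, 7.99 and 5.48 in BAT controls 1 to 4. In BAT knockouts 1 to 4 they summed to 8.14, 10.44, 10.25 and 8.16. Lymphocyte markers split the WAT knockouts in the opposite way to adipocyte markers: 10 B cell markers summed to 7.56 and 7.31 in knockouts 1-2 and 3 and to 0.89 in knockout 4, against 2.52, 2.61, 6.30 and 5.70 in WAT controls 1 to 4. All markers of these lists were well above background on at least 1 array of each of these groups. In such bulk samples fewer cells of a type and less RNA per cell cannot be told apart.

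The comparison of BAT with WAT in control mice asks how far the list marks brown fat in these samples. In controls 27 of the 35 measured members were higher in BAT than in WAT and 3 were lower, where 19.1% and 14.3% of all features were called higher and lower. The median difference of the members was 3.64, against 0.11 over all features. Ucp1, the uncoupling protein that defines thermogenic fat, differed most, and Fabp3, a fatty acid carrier of oxidative tissues, came next. Members that did not pass were Esrrg, Irf4, Tnfrsf9, Fgf21 and Bmp8b.

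**Figure D1:**
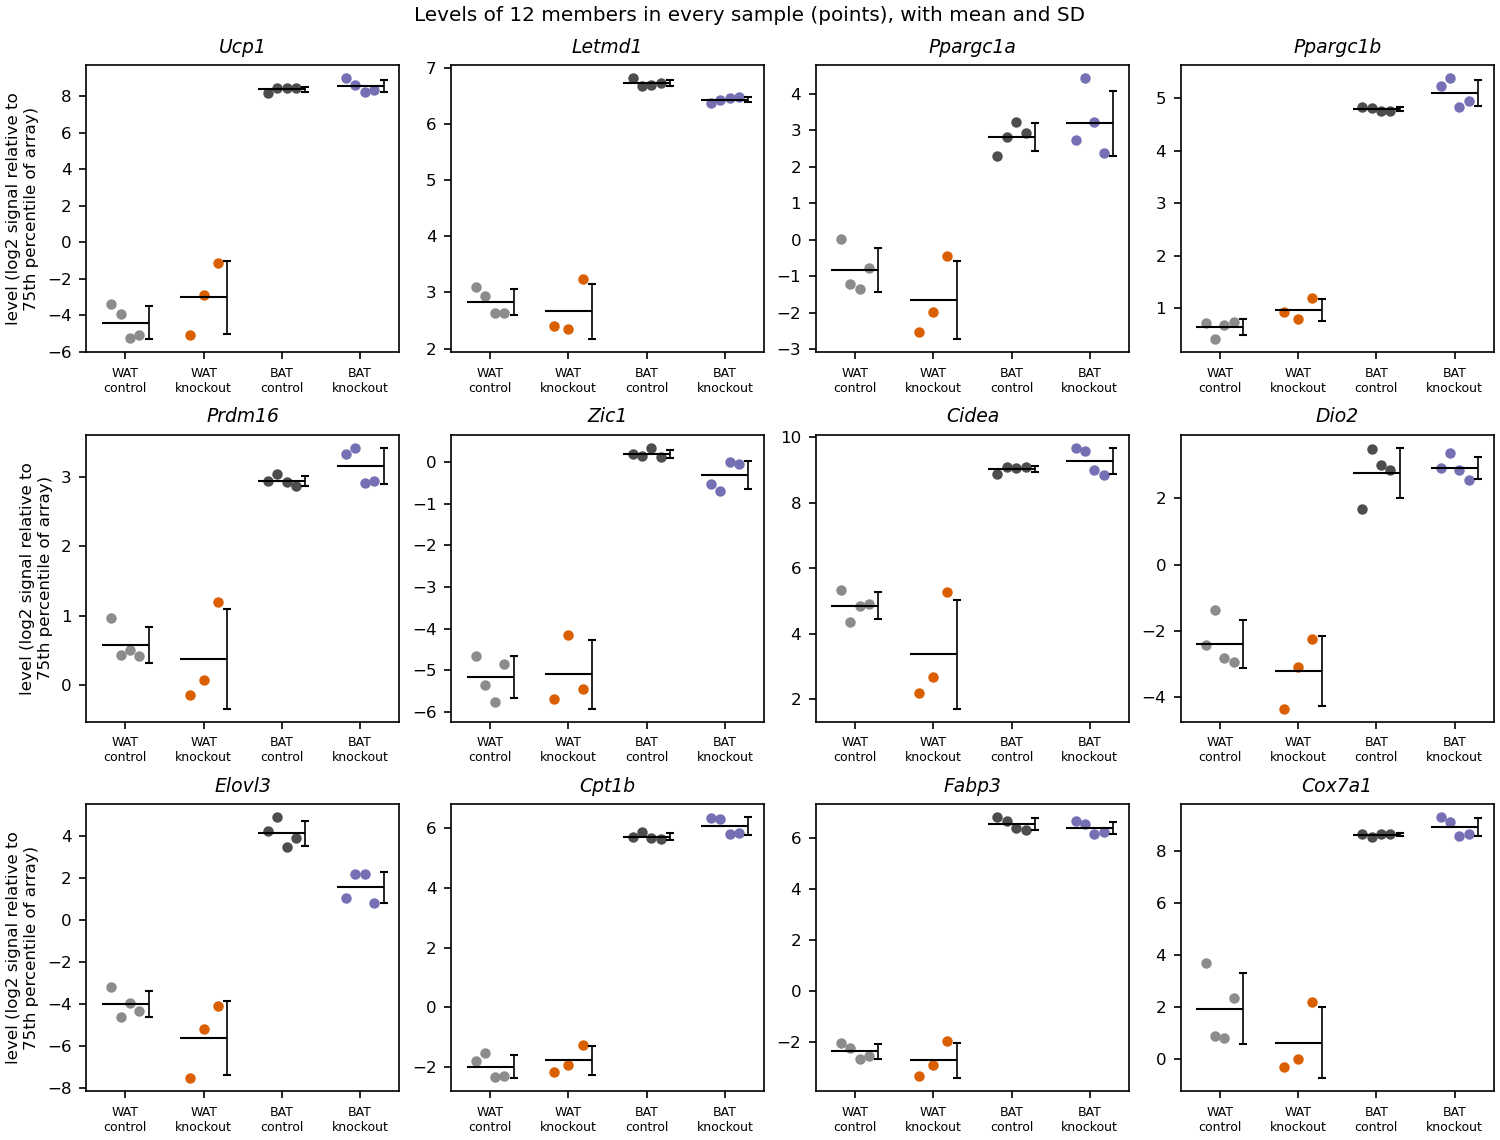
Log2 level of 12 members in every sample of the 4 groups (points), with the group mean (line) and SD (bar); each panel has its own vertical axis. BAT samples lie above WAT samples in every panel. Within BAT the knockouts lie below the controls for Elovl3, Letmd1 and Zic1, and above them, narrowly, for Ppargc1b.

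Among the uncoupling and carrier proteins, Ucp1 stood at -3.36, -3.91, -5.23 and -5.08 in WAT controls 1 to 4 and at 8.21, 8.44, 8.44 and 8.45 in BAT controls 1 to 4. Its BAT level was nearly the same in all 4 controls, while its WAT level, well above background on 3 of 4 arrays, spread more widely. The difference was 12.78 ± 0.64 (7028-fold, adjusted p = 4.63e-08). Letmd1, an inner mitochondrial membrane protein needed for brown fat heat production, was 3.10, 2.93, 2.64 and 2.64 in WAT controls and 6.81, 6.68, 6.70 and 6.74 in BAT controls, a difference of 3.91 ± 0.20 (adjusted p = 4.63e-08). The carrier paralogs went separate ways. Ucp3, which is also abundant in skeletal muscle, was higher in BAT by 2.20 ± 0.55 (adjusted p = 0.00706), whereas Ucp2, which is widely expressed and strong in immune cells, was lower in BAT by a difference of -1.66 ± 0.35 (adjusted p = 0.00237).

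Of the 11 measured coactivators, nuclear receptors and transcription factors, 8 were higher in BAT and 1 lower. Ppargc1b, the closest relative of Ppargc1a, stood at 0.73, 0.41, 0.69 and 0.74 in WAT controls and 4.84, 4.80, 4.76 and 4.76 in BAT controls, a difference of 4.15 ± 0.16 (adjusted p = 4.40e-09). Ppargc1a itself stood at 0.01, -1.22, -1.34 and -0.76 in WAT and 2.30, 2.81, 3.23 and 2.93 in BAT, higher by 3.64 ± 0.49 (adjusted p = 8.60e-05). For both coactivators the lowest BAT control lay above the highest WAT control. Prdm16, the zinc finger protein that directs precursor cells to the brown fate, was 0.97, 0.42, 0.51 and 0.41 in WAT and 2.94, 3.04, 2.92 and 2.87 in BAT, a difference of 2.37 ± 0.26 (adjusted p = 1.52e-05).

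Zic1, a marker of classical brown fat derived from the dermomyotome, was -4.67, -5.35, -5.77 and -4.86 in WAT controls and 0.18, 0.14, 0.34 and 0.11 in BAT controls, higher by 5.35 ± 0.32 (adjusted p = 1.39e-07); in WAT it was well above background on 1 of 4 arrays. Esrra, a nuclear receptor that drives mitochondrial genes with PGC-1 coactivators, was 3.13, 2.72, 2.67 and 2.81 in WAT and 5.03, 4.88, 5.18 and 5.10 in BAT, a difference of 2.22 ± 0.19 (adjusted p = 1.88e-06). Ppara, the fatty acid sensor, differed by 5.06 ± 0.52, and Ebf2 and Lhx8 by 1.77 ± 0.45 and 0.89 ± 0.20. The T-box factor Tbx1, used as a marker of beige cells, went the other way, lower in BAT with a difference of -3.87 ± 0.54 (adjusted p = 1.04e-04). For Esrrg the probes disagreed: the probe used differed by 0.11, while the other, well above background on 1 of 4 WAT and 4 of 4 BAT control arrays, differed by 6.49. With the mean of all probes of a gene in place of the brighter one, Esrrg passed in controls (3.30, adjusted p = 6.27e-06), which made 31 members called. Where other genes had several probes, the direction between depots in controls was the same for each.

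All 9 enzymes and lipid-handling proteins were higher in BAT, with differences from 3.48 (Gyk, glycerol kinase) to 8.90 (Fabp3). Fabp3 stood at -2.0, -2.20, -2.64 and -2.55 in WAT controls and 6.83, 6.67, 6.39 and 6.33 in BAT controls, a 478-fold difference (adjusted p = 3.47e-10). Cpt1b, which admits long-chain fatty acids to mitochondria in muscle and brown fat, stood at -1.80, -1.53, -2.31 and -2.29 and 5.71, 5.86, 5.67 and 5.62, a 208-fold difference (adjusted p = 3.47e-10). Elovl3, the elongase of very long chain fatty acids that cold induces in brown fat, stood at -3.16, -4.58, -3.92 and -4.33 and 4.26, 4.91, 3.47 and 3.94, a 283-fold difference (adjusted p = 9.21e-07). The depots were far apart for all of these.

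Acot11, an acyl-CoA thioesterase of brown fat, was -0.19, -2.14, -1.04 and -0.53 in WAT and 5.91, 6.0, 5.58 and 5.53 in BAT (difference 6.73 ± 0.34, adjusted p = 4.63e-08). Pank1, which starts coenzyme A synthesis, was -2.04, -2.81, -2.85 and -2.62 in WAT and 2.77, 3.02, 2.89 and 2.95 in BAT (difference 5.49 ± 0.23, adjusted p = 6.31e-09). Both were highest among WAT controls in sample 1. Dio2, the deiodinase that makes active thyroid hormone within the cell, was -2.42, -1.35, -2.81 and -2.94 in WAT and 1.69, 3.48, 3.01 and 2.86 in BAT, a difference of 5.14 ± 0.48 (adjusted p = 4.13e-06), with BAT control 1 lower than the other BAT controls. Cidea, a lipid droplet protein abundant in brown fat, was 5.35, 4.35, 4.83 and 4.90 in WAT and 8.89, 9.08, 9.04 and 9.10 in BAT, a difference of 4.17 ± 0.50 (adjusted p = 3.27e-05). Slc27a2, a fatty acid transporter and very long chain acyl-CoA synthetase, was higher in BAT by 7.27 ± 0.69, but its WAT controls spread from -4.92 to -1.08.

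Both respiratory chain subunits, the heart and muscle isoforms Cox7a1 and Cox8b of cytochrome c oxidase, were higher in BAT. Cox7a1 stood at 3.69, 0.89, 0.83 and 2.35 in WAT controls and 8.66, 8.55, 8.67 and 8.67 in BAT controls, a difference of 6.70 ± 0.61 (adjusted p = 3.51e-06). The WAT controls with the highest Cox7a1 and Slc27a2, samples 1 and 4, also had the highest summed level of 12 intestinal epithelial markers: 9.15, 1.92, 3.45 and 7.97 in WAT controls 1 to 4. The part of these transcripts in the members' WAT levels was not tested. Without WAT controls 1 and 4, an alternative chosen after seeing the data, 26 of 35 members differed between depots in controls (21.0% of all features did), and Ucp3, Ebf2, Lhx8, Tmem26 and Nrg4 no longer passed.

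Among channels, pumps and surface markers, the proton channel Otop1 (5.78 ± 0.55), the potassium channel Kcnk3 (3.09 ± 0.54) and the calcium pump Atp2a2 (1.51 ± 0.33) were higher in BAT. The beige marker Tmem26 was lower in BAT with a difference of -1.93 ± 0.60 (adjusted p = 0.0230) and was well above background on 1 of 4 BAT control arrays. Its control groups overlapped. The call was lost with another background correction (normexp) and with the muscle or B cell level as a covariate. It was also lost when any of WAT controls 1 and 3 or BAT controls 2 and 3 was left out. Tnfrsf9, which encodes the costimulatory receptor CD137 of activated T cells and is also used as a beige marker, stood at -5.21, -5.44, -2.13 and -2.72 in WAT controls and did not pass (-0.66 ± 0.81, adjusted p = 0.589). Its 2 higher WAT controls, samples 3 and 4, were those with the higher B cell markers above, and with the higher T cell markers (1.80, 1.20, 5.87 and 5.27 in WAT controls 1 to 4). Irf4, which acts in brown fat with PGC-1alpha and is also a lymphocyte transcription factor, showed the same split at -2.09, -2.12, -0.82 and -1.18.

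Of the 4 secreted proteins, Nrg4, a growth factor ligand released by brown fat, and S100b, which supports sympathetic innervation of brown fat, were higher in BAT by 2.54 ± 0.64 and 4.32 ± 0.46. The hormone Fgf21 (0.20 ± 0.66) and the growth factor Bmp8b (1.08 ± 0.45) did not pass. Fgf21 was well above background on 3 of 4 WAT and 2 of 4 BAT control arrays, and Bmp8b on 2 of 4 and 4 of 4.

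Other genes of the same pathway were counted from separate lists. Like the members, they were chosen with earlier results of these data known, so their directions are not independent support for the depot contrast. Of 20 measured genes of the adrenergic and cAMP relay, 14 were higher in BAT controls and 0 lower, among them the phosphodiesterase Pde4d (by 3.38), the kinase anchor Akap1 (by 3.16) and the adenylyl cyclase Adcy3 (by 3.30). Of 30 other transcriptional regulators of brown and beige fat 9 were higher and 3 lower. By smallest adjusted p the first were the mitochondrial deacetylase Sirt3 (higher by 3.02), Cebpb (higher by 2.94) and Foxc2 (lower, with a difference of -2.47). Of 28 further effectors and brown-enriched genes 20 were higher and 3 lower, with Cpn2 (6.72) and the pyruvate dehydrogenase kinase Pdk4 (5.42) in front. All 10 white-enriched genes were lower in BAT, for example angiotensinogen (Agt) with a difference of -4.43. These counts stand beside 19.1% of all features called higher and 14.3% called lower in BAT controls.

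Skeletal muscle markers were far higher in BAT than in WAT (17 of 18 called higher in controls), and Ucp3, Cpt1b, Fabp3, Cox7a1, Cox8b, Atp2a2 and Ppargc1a are also expressed in muscle. With the muscle level of each sample as a covariate, 20 members differed between depots in controls (9.09% of all features did) and 8 in knockouts (0.287% of all features). Those 8 were Ucp1, Fabp3, Cpt1b, Ppargc1b, Pank1, Acot11, Letmd1 and Zic1, all higher in BAT. The muscle level separates the depots in every sample.

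The knockout mice gave the same depot contrast again. In knockouts 26 members were higher in BAT and 3 lower (16.7% and 13.9% of all features), and 29 members were called in the same direction in both genotypes. The median difference was 3.94, against -0.09 over all features. Lhx8, a transcription factor of classical brown fat, was called in controls (0.89 ± 0.20) but not in knockouts (0.15 ± 0.21, adjusted p = 0.649); the test of the difference between these contrasts did not pass (adjusted p = 0.435). The other Lhx8 probe differed between depots by 1.10 in controls and 0.58 in knockouts, without overlap in either.

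**Figure D2:**
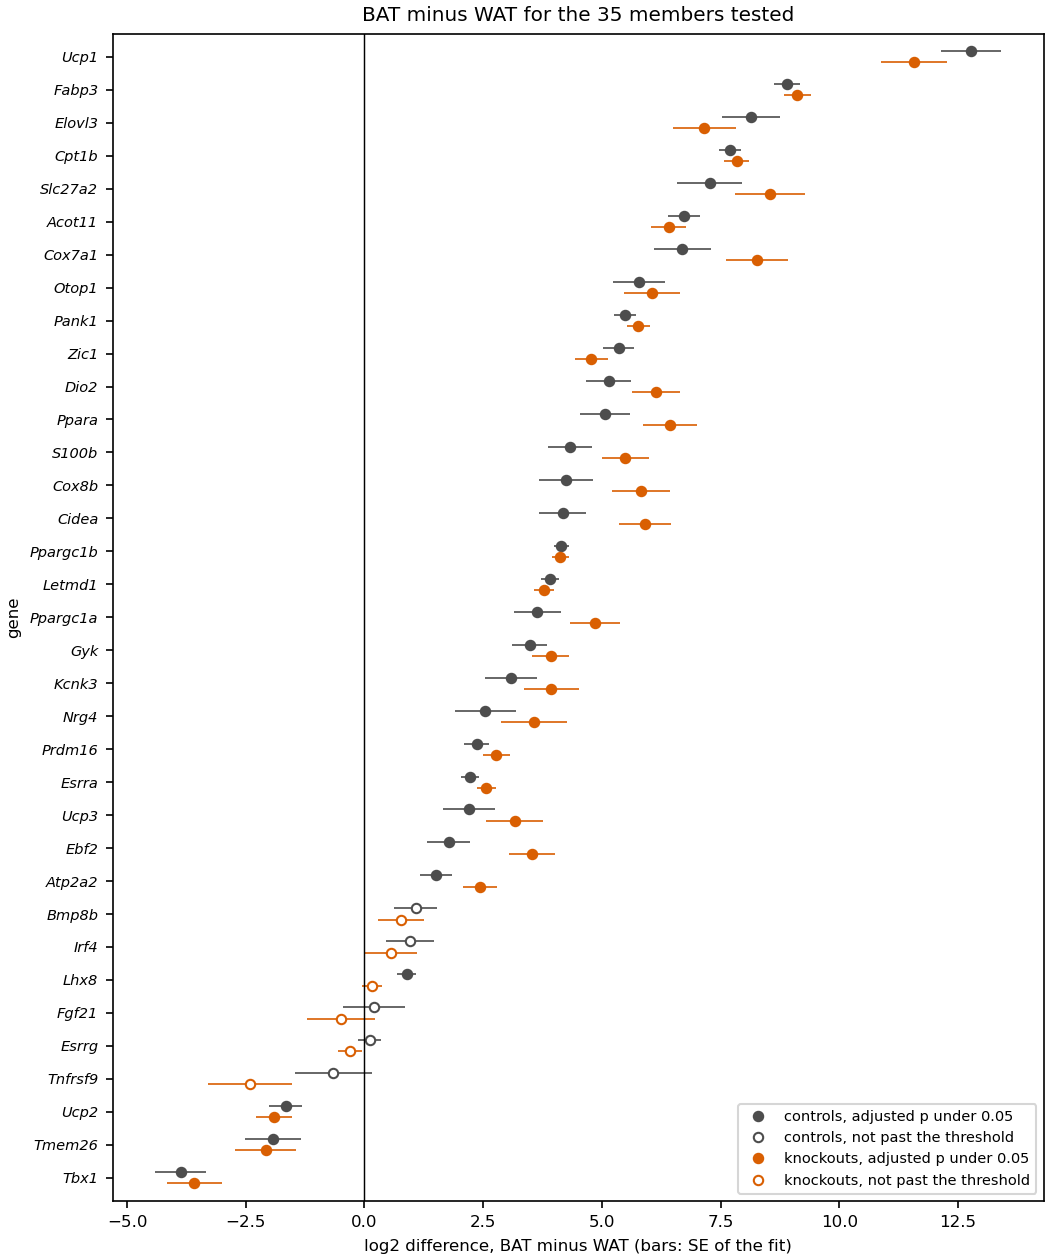
Log2 difference between BAT and WAT (horizontal axis) with its SE for the 35 measured members (rows), in controls and in knockouts; filled points passed the threshold of 0.05. Ucp1 lies farthest to the right at 12.78 in controls and 11.58 in knockouts, and Tbx1, Tmem26 and Ucp2 lie to the left of 0 in both.

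Ucp1 was -5.06, -2.88 and -1.10 in WAT knockouts 1-2, 3 and 4 and 8.99, 8.65, 8.24 and 8.35 in BAT knockouts 1 to 4, a difference of 11.58 ± 0.69 (adjusted p = 2.76e-07). Fabp3 was -3.30, -2.88 and -1.94 in WAT and 6.67, 6.55, 6.16 and 6.26 in BAT knockouts (9.12 ± 0.29), and Cpt1b was -2.16, -1.91 and -1.24 and 6.35, 6.29, 5.81 and 5.82 (7.84 ± 0.26). Both differences were close to those in controls. Cox7a1 was -0.30, 0.02 and 2.21 in WAT and 9.30, 9.11, 8.58 and 8.66 in BAT knockouts, a difference of 8.27 ± 0.66. Tmem26 was well above background on no BAT knockout array and on 3 of 4 WAT knockout arrays. Its mean level in WAT knockouts was at least 2.22-fold higher. The limma adjusted p of 0.0251 belongs to the fitted difference, whose BAT values were not well above background. That call was lost with normexp, slide blocks, only the groups compared, and the muscle or B cell covariate. It was also lost when WAT knockout 1-2, WAT knockout 3 or BAT knockout 4 was left out. Of the other lists, 12 of 20 relay genes, 10 of 30 regulators and 22 of 28 effectors were higher in BAT knockouts, with 0, 5 and 0 lower. In the white-enriched list 3 of 10 genes were lower. These counts stand beside 16.7% of all features called higher and 13.9% called lower in BAT knockouts.

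The comparison of knockout with control BAT asks whether losing GR in fat changes the brown programme of brown fat. No member passed the limma test in either direction; 0.00797% of all features were called higher and 0.00797% lower. At an unadjusted p under 0.05 there were 3 members of 35 (Elovl3, Acot11 and Tbx1), where 13.1% of all features lay. Of the 35 members 20 had a positive and 15 a negative difference, with a median of 0.08 against 0.10 over all features. The smallest adjusted p among them was 0.182, for Elovl3. The 95% intervals of the members' differences reached from 0.35 to 1.74 log2 units to either side. Their widths come from a spread shared by all 4 groups, WAT included, and set no limit of detection at the adjusted threshold. The lack of calls therefore does not show that the members were unchanged.

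For Ucp1, Cidea and Cox7a1 the genotypes overlapped in BAT, and each difference was smaller than its SE. Ucp1 was 8.21, 8.44, 8.44 and 8.45 in controls and 8.99, 8.65, 8.24 and 8.35 in knockouts, a difference of 0.17 ± 0.64 (95% interval -1.20 to 1.55, adjusted p = 0.95). Cidea was 8.89, 9.08, 9.04 and 9.10 in controls and 9.66, 9.57, 8.99 and 8.86 in knockouts, a difference of 0.24 ± 0.50 (interval -0.84 to 1.32). For both genes BAT knockouts 1 and 2 lay above all controls, and without those 2 samples the differences were -0.09 and -0.10. Cox7a1, at 9.30, 9.11, 8.58 and 8.66 in BAT knockouts, showed the same order, as did S100b at 5.26, 4.79, 4.64 and 4.55 in controls and 6.56, 6.37, 5.06 and 5.08 in knockouts. Of all features, 57.9% and 45.9% lay above every BAT control in knockouts 1 and 2, and 21.4% and 25.0% below. In knockouts 3 and 4, 25.3% and 22.9% lay above and 31.1% and 34.2% below. Arrays 1 and 2 were also the dimmest, with 75th percentile signals of 298 and 320, against 486 to 561 on the other BAT arrays. BAT knockouts 1 and 2 had the highest summed levels of 10 endothelial markers (7.71 and 7.33, against 6.55 and 6.60 in knockouts 3 and 4 and 6.13 to 6.59 in controls). The part of these sample properties in the members' levels was not tested.

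In BAT, Dio2 was 1.69, 3.48, 3.01 and 2.86 in controls and 2.93, 3.35, 2.86 and 2.56 in knockouts, a difference of 0.16 ± 0.48 (interval -0.86 to 1.19), which turned to -0.20 without control 1. Prdm16 was 3.33, 3.42, 2.92 and 2.94 in knockouts against 2.94, 3.04, 2.92 and 2.87 in controls, a difference of 0.21 ± 0.26 (interval -0.35 to 0.77). Ppargc1a was 2.30, 2.81, 3.23 and 2.93 in controls and 2.75, 4.43, 3.24 and 2.38 in knockouts, a difference of 0.38 ± 0.49 (interval -0.68 to 1.44). The 2 highest Ppargc1a values of the knockouts were those of samples 2 and 3, whose skeletal muscle markers were the highest at 10.44 and 10.25. Atp2a2, the main calcium pump of slow muscle and heart, was 1.34, 3.12, 2.99 and 2.31 in knockouts against 2.01 to 2.29 in controls, again highest in samples 2 and 3. For both genes the probes disagreed in sign. The Atp2a2 probe used differed by 0.28 in BAT and its other probes by -0.33 and -0.42, the last without overlap. The other Ppargc1a probe differed by -0.11. All 18 muscle markers had a positive difference in BAT knockouts (median 1.97, 0 called), and their part in the members' values was not tested. Without knockout 2 the Ppargc1a difference was -0.03.

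For 8 of the 35 members the knockout and control samples of BAT did not overlap, where 18.0% of all features showed such a split. Elovl3, Acot11, Otop1, Letmd1 and Zic1 were lower in all 4 knockouts, and Ucp2, Ppargc1b and Ebf2 were higher in all 4. Elovl3 was 4.26, 4.91, 3.47 and 3.94 in controls and 1.07, 2.21, 2.19 and 0.83 in knockouts, a difference of -2.57 ± 0.62, or 5.95-fold (interval -3.90 to -1.24, unadjusted p = 0.0010, adjusted p = 0.182). Within the 4 slides, each of which held 1 array of every group, the Elovl3 difference was -3.84, -1.26, -2.07 and -3.11, and with slide as a block it was -2.57 (adjusted p = 0.219). Over the alternative settings it kept its sign, between -3.46 and -2.32, and passed in 1 of them, with the B cell level as a covariate (-2.45, adjusted p = 0.0497). With the muscle level of each sample as a covariate the Elovl3 difference was -3.46 (adjusted p = 0.145).

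**Figure D3:**
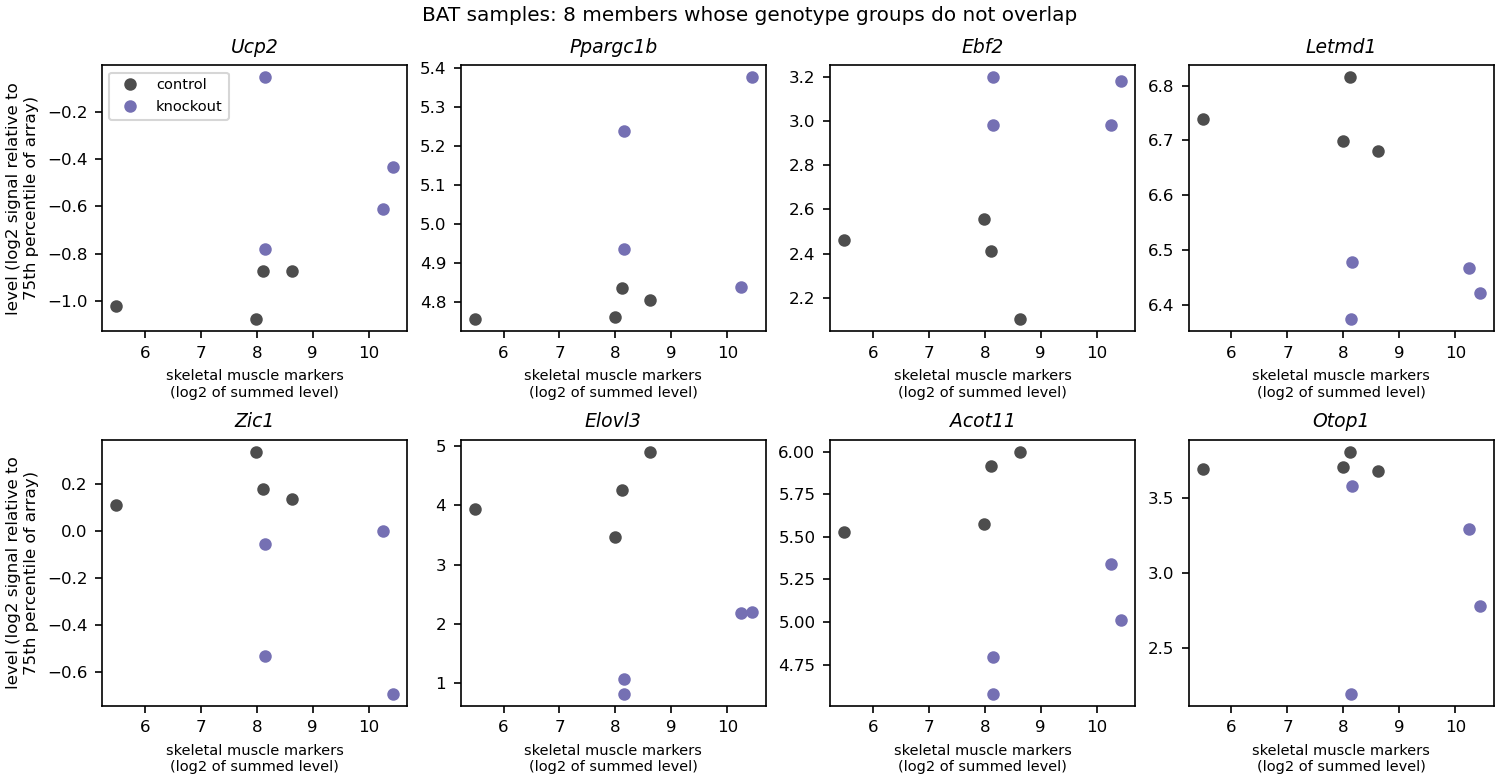
Log2 level (vertical axis) of the 8 members whose BAT genotype groups did not overlap, against the log2 summed level of 18 skeletal muscle markers (horizontal axis) in the 8 BAT samples. Elovl3 is at 3.47 to 4.91 in controls and 0.83 to 2.21 in knockouts. The 8 members were chosen because their genotype groups do not overlap, so the split in each panel is how they were chosen.

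Acot11 was 5.91, 6.0, 5.58 and 5.53 in BAT controls and 4.58, 5.01, 5.34 and 4.79 in knockouts, a difference of -0.82 ± 0.34 (interval -1.55 to -0.09, adjusted p = 0.328), and -1.42, -0.57, -0.57 and -0.74 within the slides. Its other probe differed by -1.94 in the same direction. Otop1, the proton channel, was 3.81, 3.68, 3.71 and 3.69 in controls and 2.20, 2.78, 3.29 and 3.57 in knockouts, a difference of -0.76 ± 0.55 (adjusted p = 0.607). Its knockout samples ran from well below the controls in sample 1 to just below them in sample 4. Letmd1 was 6.37, 6.42, 6.47 and 6.48 in knockouts against 6.81, 6.68, 6.70 and 6.74 in controls, a difference of -0.30 ± 0.20 (adjusted p = 0.558). Zic1 was -0.53, -0.69, 0.0 and -0.06 in knockouts against 0.18, 0.14, 0.34 and 0.11 in controls (-0.51 ± 0.32).

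On the other side, Ebf2, which opens brown fat gene enhancers, was 2.41, 2.10, 2.56 and 2.46 in controls and 3.20, 3.18, 2.98 and 2.98 in knockouts, a difference of 0.70 ± 0.45 (adjusted p = 0.546). Ppargc1b was 5.24, 5.38, 4.84 and 4.94 in knockouts against 4.84, 4.80, 4.76 and 4.76 in controls (0.31 ± 0.16), with the closest knockout and control both at 4.84. The other Ppargc1b probes differed by 0.56 and 0.10, with overlapping groups. Ucp2 was -0.05, -0.43, -0.61 and -0.78 against -0.88, -0.87, -1.08 and -1.02 (0.49 ± 0.35), and its other 2 probes differed by 0.01 and 0.09. None of these differences passed the test. Among members with overlapping groups, Tbx1 had the largest positive difference (1.16 ± 0.54, unadjusted p = 0.049). Fgf21 was well above background on 2 of 4 control and no knockout array. The probe used for it overlapped between genotypes and did not pass (-1.30 ± 0.66, adjusted p = 0.423). Under normexp, another background correction, its difference was 0.19 ± 0.53. The other Fgf21 probe, well above background on as many arrays of each group, differed by -1.55, without overlap. With knockout signals this near background, the size of these differences is uncertain. Of the genes in the 4 pathway lists, 0 of 88 measured passed in BAT.

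**Figure D4:**
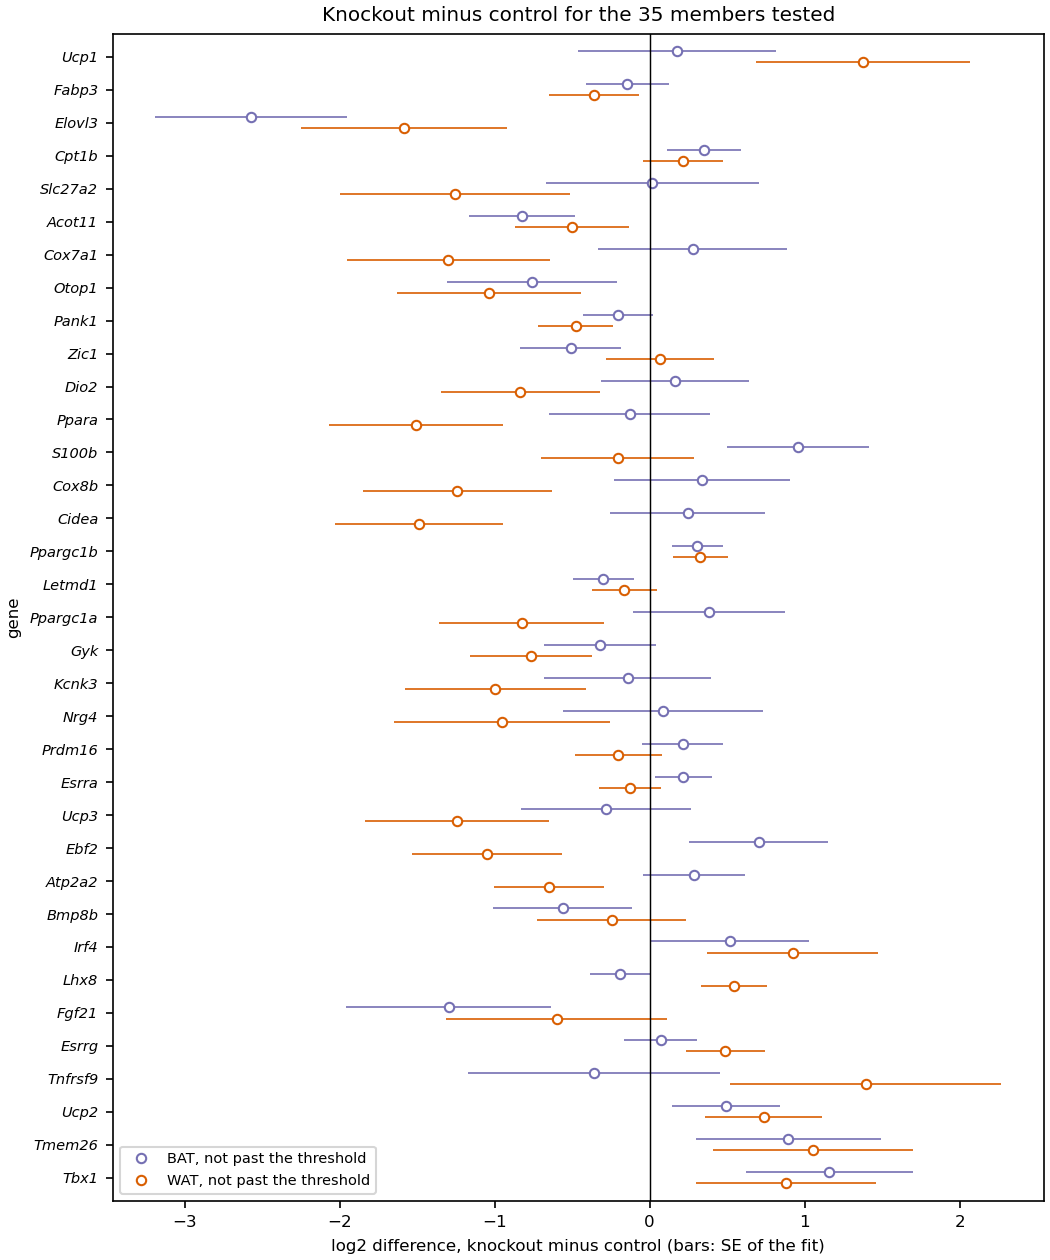
Log2 difference between knockout and control (horizontal axis) with its SE for the 35 measured members (rows, in the order of their depot difference in controls), in BAT and in WAT. No point passed the threshold; Elovl3 lies farthest to the left at -2.57 in BAT and -1.58 in WAT.

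The same comparison in WAT asks whether losing GR changes the low level of brown and beige genes in white fat. No member passed (0.0199% of all features were called higher and 0.0398% lower). At an unadjusted p under 0.05 there were 5 members (Ppara, Ebf2, Lhx8, Cidea and Elovl3), where 17.9% of all features lay. Of the 35 members 11 had a positive and 24 a negative difference, with a median of -0.48 against 0.24 over all features. Among the members well above background on every WAT array, the largest negative differences were those of Ppara (-1.51 ± 0.56) and Cidea (-1.49 ± 0.54, adjusted p = 0.243). Tnfrsf9 (1.39 ± 0.88) and Ucp1 (1.38 ± 0.69, adjusted p = 0.295) had positive differences, with some WAT arrays of each genotype not well above background. Elovl3 was well above background on 1 of 4 WAT knockout arrays, and its difference of -1.58 ± 0.67 was -0.23 ± 0.56 with normexp.

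What stood out in WAT was the spread among the knockouts themselves. The median SD of the members was 1.07 in WAT knockouts (n = 3), against 0.38 in WAT controls, 0.15 in BAT controls and 0.35 in BAT knockouts, while the median SD of all features in WAT knockouts was 0.62. In WAT knockout 1-2, 23 of 35 members lay below every WAT control and 8 above; in knockout 3 these counts were 20 and 10, and in knockout 4 they were 1 and 15. Of all features, 32.3%, 23.9% and 12.6% lay below every control in these samples, and 33.6%, 49.6% and 32.7% above. Relative to the control means, the median member stood at -0.95 and -0.50 in knockouts 1-2 and 3 and at 0.37 in knockout 4, with -0.04, 0.47 and 0.23 over all features.

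Cidea shows this pattern plainly: it was 5.35, 4.35, 4.83 and 4.90 in WAT controls and 2.17, 2.67 and 5.26 in knockouts 1-2, 3 and 4. Knockout 4 was in the range of the controls and the other 2 lay below every control. Ppara followed at -3.31, -2.62 and 0.16 in knockouts against -0.62, -0.31, -0.42 and -0.33 in controls, and Cox8b at 1.34, 2.09 and 5.02 against 3.97, 4.54, 3.84 and 3.87. Nrg4, at -1.01, 0.19 and 3.43 in knockouts, ran from far below to above the controls (1.5 to 2.23). Kcnk3 (-1.05, -0.21 and 2.56), Ebf2 (-1.54, -1.06 and 1.28) and Ucp3 (-2.37, -1.11 and 1.26) had the same order of samples.

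The remaining key genes followed less evenly. Ppargc1a was -2.52, -1.98 and -0.46 in WAT knockouts against 0.01, -1.22, -1.34 and -0.76 in controls, a difference of -0.83 ± 0.53 (interval -1.97 to 0.32). Dio2 was -4.34, -3.07 and -2.24 against -2.42, -1.35, -2.81 and -2.94, a difference of -0.83 ± 0.52 (interval -1.94 to 0.27). Prdm16 was -0.15, 0.07 and 1.20 against 0.97, 0.42, 0.51 and 0.41, a difference of -0.20 ± 0.28 (interval -0.80 to 0.40). In all 3, knockout 1-2 was the lowest and knockout 4 the highest. Elovl3 was -7.51, -5.19 and -4.05 against -3.16, -4.58, -3.92 and -4.33 and was well above background on 1 of 4 WAT knockout arrays.

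**Figure D5:**
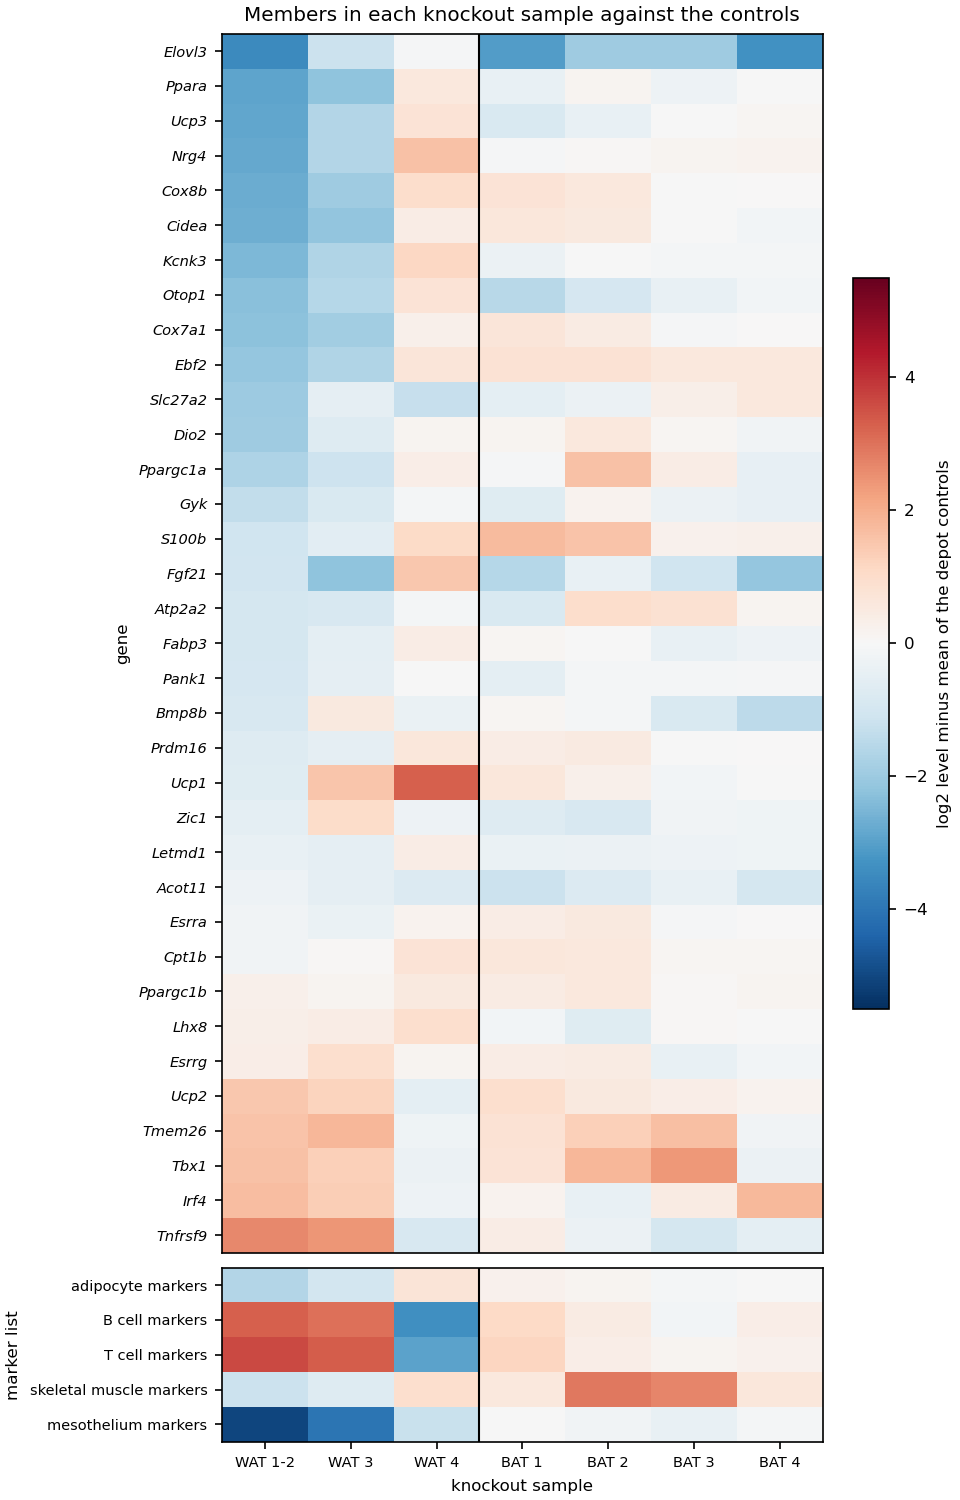
Log2 level of each of the 35 measured members (rows) in each knockout sample (columns) minus the mean of the controls of the same depot, on a colour scale from blue (lower) to red (higher), with the summed levels of 5 marker lists treated the same way below. In WAT knockouts 1-2 and 3 most rows and the adipocyte markers are blue and the lymphocyte markers red, in WAT knockout 4 the colours turn, and Elovl3 is blue in all 4 BAT knockouts.

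Other members ran the other way, some of them also genes of lymphocytes (Tnfrsf9, Irf4 and Ucp2) and some used as beige markers (Tbx1 and Tmem26). Tnfrsf9 was -1.24, -1.44 and -4.76 in WAT knockouts 1-2, 3 and 4, Irf4 was 0.15, -0.20 and -1.85, and Ucp2 was 2.20, 1.93 and 0.17, each high in knockouts 1-2 and 3 and low in knockout 4. Tbx1 was 1.33, 1.02 and -0.61 and Tmem26 was -2.90, -2.63 and -4.69 in the same samples, with the same split. T cell markers summed to 7.19, 6.87 and 0.60 in the same samples, in the same order as B cell markers, and adipocyte markers had the reverse order. All 10 B cell and all 10 T cell markers had a positive difference in WAT knockouts and all 11 adipocyte markers a negative one, none of them called. The part of sample content in the members' WAT values was not tested.

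Ucp1 was -3.36, -3.91, -5.23 and -5.08 in WAT controls and -5.06, -2.88 and -1.10 in knockouts, so that knockout 3, low for Cidea and Cox8b, lay above every control, as did knockout 4, the highest of all. The 3 knockout samples had the same order for Ucp1 as for the adipocyte markers. Within the slides the Ucp1 difference was 0.48, -0.81, 4.13 and -0.34, the highest on the slide of knockout 4. The values of -0.81 and -0.34 come from the near-identical arrays of knockout 1-2 and are not separate samples. The 2 members whose WAT groups did not overlap were Ppargc1b (0.92, 0.79 and 1.19 in knockouts against 0.73, 0.41, 0.69 and 0.74 in controls) and Lhx8 (-1.54, -1.45 and -0.96 against -2.11, -1.69, -1.76 and -1.89), both higher in knockouts; 7.70% of all features showed such a split. The other Lhx8 probe differed by 0.16 in WAT, with overlapping groups. The other Ppargc1b probes differed by 0.15, with overlap, and by 0.40, without. Neither member passed the limma test (differences of 0.33 ± 0.18 and 0.54 ± 0.21, adjusted p = 0.314 and 0.255).

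The absence of calls in WAT rested on knockout 4. Without that sample, 16 members were called lower and 3 higher, where 15.9% and 20.8% of all features were. Those called lower included Ppara (-2.55 ± 0.21, adjusted p = 8.1e-05), Cidea (-2.43 ± 0.29), Cox8b (-2.34 ± 0.28), Kcnk3 (-2.06 ± 0.25) and Ppargc1a (-1.42 ± 0.51), and the 3 higher were Ucp2, Irf4 and Tnfrsf9. This fit leaves 2 knockout samples, both with high lymphocyte and low adipocyte markers. With the B cell level of each sample as a covariate instead, 1 member was called in WAT, Ucp1, higher in knockouts (3.78% of all features were called). Of the 10 white-enriched genes 10 had a negative difference in WAT knockouts, and 1 passed, Wt1, a gene of mesothelium and visceral white fat precursors, which fell from 0.33 to -2.48 (adjusted p = 0.0407). Wt1 is also on the list of 6 mesothelium markers, all 6 of which had a negative difference in WAT knockouts (median -3.02), with a mean summed level of 1.78 against 5.21 in controls. Of the 12 intestinal epithelial markers 10 had a negative difference (median -3.01), none of them called. The part of these transcripts in the WAT differences was not tested. In the other 3 pathway lists 0 genes passed in WAT.

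The interaction asks whether the knockout difference itself varied with the depot. No member passed (0.00398% of all features were called higher and 0.00% lower). At an unadjusted p under 0.05 there were 3 members (Ebf2, Lhx8 and Cidea), where 10.4% of all features lay, and the smallest adjusted p was 0.417, for Ebf2 (1.75 ± 0.66). Cidea had 1.73 ± 0.74, Ppargc1a 1.21 ± 0.73, Dio2 1.0 ± 0.70, Prdm16 0.41 ± 0.38, Elovl3 -0.99 ± 0.91 and Ucp1 -1.20 ± 0.94. With normexp the Elovl3 interaction was -2.37 ± 0.77 (unadjusted p = 0.0079, adjusted p = 0.918). Without WAT knockout 4, 9 members passed, all positive, that is less lowered or more raised in BAT than in WAT: Cidea, Cox8b, Ebf2, Kcnk3, Nrg4, Ppara, Prdm16, S100b and Ucp3, where 10.3% of all features were called higher.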

How the data were processed

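RNA of 16 adipose samples was measured on one-colour (Cy3) Agilent arrays. Per the file headers, the authors extracted signals with Agilent Feature Extraction 12.0.0.7 on a design annotated to mm9; the intensity they deposited as processed signal had its background subtracted and was not scaled between arrays. Flag columns, of another kind, are deposited as 0 or 1 per spot, and the deposited value table holds the same intensity averaged per probe (equal within 1e-04 for 41174 probes).

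From these, flagged spots were dropped, repeated spots averaged, and log2 signal minus the array's 75th percentile (298 to 1035 over arrays; 66.7% to 83.6% of probes well above background) was computed. Probes well above background on at least 3 arrays of a group were kept, the brightest per gene, giving 16677 named genes and 8430 unnamed probes; accessions named 28223 probes through RefSeq (GRCm38). R 4.3.3 with limma 3.58.1 and data.table (version 1.17.8) fitted 4 group means over 15 samples (11 residual degrees of freedom); Python 3.11.15 with pandas 2.3.3 and SciPy 1.17.1 computed the rest. Tests were two-sided. The fit was tested on simulated data.

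The members and lists were chosen with earlier results of these data known. Values in every sample are given for Ucp1, Ppargc1a, Prdm16, Cidea, Dio2, Elovl3 and the 12 members with the smallest adjusted p between depots in controls; members described further were chosen after their values were seen. A lower-bound fold uses the lowest signal among probes well above background on each array. Each slide held 1 array of each group at an array position particular to that group, so position and group cannot be told apart. Deviations of same-numbered samples correlated from -0.47 to 0.31 (24 pairs), but these include pairs between genotypes, which cannot share an animal. Between WAT and BAT of the same number the correlations were 0.18, 0.10, 0.05 and 0.05 in controls. In knockouts they were -0.06, 0.02, -0.26 and 0.09. So few pairs cannot settle whether the numbers mark animals. The labels state no pairing, and replicate numbers were not used as pairs. The normexp alternative used median signals, because the files hold no mean signal column. Other alternatives were quantile normalization, no filter on dim probes, all probes of a gene, each array as a sample, slide and replicate blocks, marker covariates, and leaving out samples.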

Additional observations from a re-analysis of the deposited data

Results flagged for a closer look

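Among 105 groups of 4 sample values of the members, 4 held a value far from the other 3, by Dixon's criterion for a gap relative to the range; chance marks about 1 in 20 groups. Ucp1 was 8.21 in BAT control 1, against 8.44 to 8.45 in the other BAT controls. Ppargc1b was 0.41 in WAT control 2, against 0.69 to 0.74 in the others. Pank1 was 2.38 in BAT knockout 1, against 2.79 to 2.83. Cox7a1 was 8.55 in BAT control 2, against 8.66 to 8.67. All 4 genes were well above background on every array of the group concerned.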

How the results depend on the processing

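The number of members called between depots lay between 20 and 31 in controls over all alternatives, and between 26 and 30 in knockouts but for the skeletal muscle covariate, with which it was 8. Leaving out single samples gave 29 to 30 members in controls and 28 to 30 in knockouts, 0 in BAT, 0 to 19 in WAT and 0 to 9 in the interaction; the highest counts in the last 2 came without WAT knockout 4, when 9235 and 4055 of all features were called. With the B cell covariate 1 member was called in each of BAT (Elovl3), WAT (Ucp1) and the interaction (Ebf2), where 305, 950 and 439 features were. With the replicate block the counts were 30, 29, 0, 0 and 0 (controls, knockouts, BAT, WAT, interaction), and the pairing by number changed no call count by over 1.5 times.

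No genotype difference below passed the test in any setting where its sign turned. In BAT the difference for Ucp1 turned to -0.027 with normexp, for Cidea to -0.044 with quantile normalization, and with the muscle covariate to -0.35 (Ucp1), -0.25 (Ppargc1a), -0.037 (Prdm16), -0.19 (Cidea) and -0.30 (Dio2). Alternatives chosen after seeing the data left out BAT knockouts 1 and 2 (-0.088, -0.0056, -0.011, -0.10 and -0.055 for the same genes) or BAT control 4 and knockouts 2 and 3 (Ppargc1a -0.22). Over single left-out samples Ppargc1a ran from -0.027 to 0.66 and Dio2 from -0.20 to 0.40 in BAT, and Prdm16 from -0.61 to 0.059 in WAT. Without WAT knockouts 1-2 and 3, also chosen after seeing the data, differences in WAT were 0.37 (Ppargc1a), 0.62 (Prdm16), 0.40 (Cidea) and 0.14 (Dio2), and interactions -0.41 (Prdm16) and -0.16 (Cidea); 1 knockout sample is then assumed to vary like the other groups. The normexp setting moved the median of all features by -0.26 between depots in controls, 0.13 in knockouts, 0.24 in BAT and 0.30 in the interaction, and quantile normalization by -0.13 in WAT; the cause of the turned signs was not tested. Signals near background limit Zic1, Elovl3, Ucp1 and Slc27a2 in WAT, Tmem26 in BAT, and Fgf21, Bmp8b and Tnfrsf9 in both depots.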
